A study of Homo sapiens with 3 samples.

Results

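Fibrinogen-high cells of mdR-H460, a derivative of the lung carcinoma line H460, were taken as cells with at least 1000 UMIs in total and at least 5 UMIs of FGG, the gene of the fibrinogen gamma chain. A UMI is a molecular tag that marks 1 captured RNA molecule. The rule found 1085 cells, 23.8% (22.5% to 25.02%, exact binomial interval) of the 4566 cells of mdR-H460 with 1000 UMIs or more, out of 14638 cells in the series. They were described against the 1350 cells of the same library with 0 FGG UMIs, called FGG-zero cells here. The members were chosen by their FGG count, so its own level is a description. Every comparison of the 2 classes in mdR-H460 is likewise given without a test, because cells of 1 library are not replicates.

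The study set H460 beside 2 derivatives, labelled mid-term (mdR-H460) and long-term (ldR-H460), with 1 library of single cells each and no other replicate. H460 is a large cell lung carcinoma line and is labelled as the parent of both derivatives. The labels describe the preparation of reprogrammed cancer cells on a feeder layer of gamma-irradiated human fibroblasts in a pluripotency medium. The sample descriptions carry the codes H460_P57, IH460_D13 for mdR-H460 and IH460_D30 for ldR-H460, whose meaning the labels do not spell out. The sources used here do not state what else the derivatives received. All 3 cultures derive from the same line, so none is an independent donor.

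Fibrinogen is the soluble plasma protein that thrombin turns into the fibrin of a clot. It is built from 2 copies each of 3 chains, whose genes FGA, FGB and FGG lie next to each other on chromosome 4. Hepatocytes make nearly all of it, and in the acute phase response IL-6 acts through STAT3, with C/EBP and other liver factors, to raise its transcription. Lung epithelial and lung cancer cells are also known to express it.

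In the GENCODE annotation of GRCh38, FGB lies at chr4:154562956-154571086 on the plus strand, FGA at chr4:154583126-154590766 on the minus strand and FGG at chr4:154604134-154612967 on the minus strand. The 250 bases before each start site in RefSeq (GRCh38.p14) are shown because these 3 genes are the ones the class turns on. RefSeq and GENCODE place the starts differently. The FGG stretch lies wholly within the GENCODE span of FGG, and those of FGA and FGB overlap theirs in part. Capitals mark matches, on either strand, to TTCNNNGAA (STAT) or TTGCNNAA (C/EBP).
FGA, chr4:154590743-154590992, minus strand: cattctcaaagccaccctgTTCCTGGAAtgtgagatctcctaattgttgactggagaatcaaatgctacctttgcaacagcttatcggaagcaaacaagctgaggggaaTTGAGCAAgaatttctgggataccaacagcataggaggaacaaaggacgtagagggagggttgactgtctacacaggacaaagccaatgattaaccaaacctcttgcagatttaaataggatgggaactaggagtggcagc
FGB, chr4:154562730-154562979, plus strand: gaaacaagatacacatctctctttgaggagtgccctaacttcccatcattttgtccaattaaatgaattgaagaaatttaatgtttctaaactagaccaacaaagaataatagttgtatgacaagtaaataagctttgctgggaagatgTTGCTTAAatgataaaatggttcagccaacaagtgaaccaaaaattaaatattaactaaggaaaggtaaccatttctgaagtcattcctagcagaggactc
FGG, chr4:154612657-154612906, minus strand: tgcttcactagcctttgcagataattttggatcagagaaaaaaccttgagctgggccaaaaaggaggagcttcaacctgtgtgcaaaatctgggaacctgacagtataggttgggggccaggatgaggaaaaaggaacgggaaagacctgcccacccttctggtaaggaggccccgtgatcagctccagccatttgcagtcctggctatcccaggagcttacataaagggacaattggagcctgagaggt

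In windows of 300 bases that add the first 50 bases of each transcript, FGA held 1 match to each motif, FGB held 1 C/EBP match, and FGG held none. Of 35116 RefSeq windows of that length, 7.66% held the STAT letters and 10.5% the C/EBP letters. RefSeq gives FGB a second start, whose window held the same match. A match describes the letters only.

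FGG itself stood at 578 CPM (counts per 1000000 UMIs of the class) in the members, and the median member held 8 FGG UMIs, with quartiles of 6 and 11 and a highest count of 90. The members held 70.4% of the FGG UMIs of the library. Over all cells, FGG was at 29.3 CPM in H460, 233 CPM in mdR-H460 and 12.2 CPM in ldR-H460. FGA was at 1.22, 56.3 and 7.69 CPM in the same order. FGB was at 5.98, 32.9 and 6.53 CPM. All 3 chains were highest in mdR-H460, and the same rule found 97 cells in H460, 2.33% of its cells of 1000 UMIs or more, and 14 cells in ldR-H460, 0.295%.

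The rule reads an absolute count, so it took deeper cells. The median member held 16711 UMIs and 3013 genes, against 9913 UMIs in FGG-zero cells, of which 27.3% were under 5000 UMIs, against 4.79% of the members. Mitochondrially encoded UMIs made up 5.04% of the members' total and 5.31% of that of FGG-zero cells. The nuclear transcripts MALAT1, NEAT1 and KCNQ1OT1 all lay above 1 in members, with a median log2 ratio of 0.19 that was 0.31 against depth-matched cells. In cells of 10000 to 20000 UMIs MALAT1 stood at 6507, 6509, 7700 and 8730.5 CPM with 0, 1 to 4, 5 to 9 and 10 or more FGG UMIs. The part of this difference in the results was not tested. Folds are therefore given also against depth-matched FGG-zero cells, which are FGG-zero cells weighted to the members' distribution over 10 depth bins, and among the 355 members and 432 FGG-zero cells of 10000 to 20000 UMIs. FGG was also at 214 CPM in the 585 deposited cells under 1000 UMIs, from 57 UMIs, near the library's 233 CPM. RNA free in the suspension gives UMIs to cells that do not express a gene, and its part in the FGG counts was not tested. Doublets were not called. Cell barcodes shared with H460 numbered 30, of which 6 were members, and 24 were shared with ldR-H460, of which 5 were members.

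The FGG count has no gap at the threshold. There were 321 cells with 4 FGG UMIs and 207 with 5, of similar median depth (16043 and 16116 UMIs). FGA stood at 59.1 CPM in the cells with 4 and at 76.5 CPM in those with 5, and FGB at 32.6 and 32.9 CPM. GDF15 stood at 169 and 229 CPM. The class is thus a range cut from a graded count, and its neighbours just outside already lay above the FGG-zero level of FGA, 25.04 CPM. Among the 1629 cells of 10000 to 20000 UMIs, the variance of the FGG count was 8.34 times its mean, the ninth highest of 449 genes of like mean, whose median was 1.52.

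The other fibrinogen chains were higher in the members than in FGG-zero cells. FGA, the alpha chain, stood at 98.5 CPM in members and 25.04 CPM in FGG-zero cells, a 3.93-fold difference (3.52 to 4.39, 95% interval for counting error only, as for all intervals below). It was 4.42-fold higher than in depth-matched cells and 5.09-fold (4.25 to 6.14) higher in the window of 10000 to 20000 UMIs. FGB, the beta chain, stood at 56.5 and 21.5 CPM, 2.62-fold (2.32 to 2.97), with 2.94-fold against depth-matched cells. Both were higher in each of 4 depth ranges, with FGA between 3.66-fold and 5.10-fold.

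Within the class the chains were not always seen together. Of the 1085 members, 319 (29.4%) held UMIs of both FGA and FGB, 426 (39.3%) of FGA only, 118 (10.9%) of FGB only and 222 (20.5%) of neither. After every cell was thinned to 5000 UMIs, which left out 52 members and 369 FGG-zero cells, FGA was seen in 40.2% of members (68.7% unthinned) and 11.8% of FGG-zero cells (21.5% unthinned). FGB was seen in 18.8% and 8.97% (40.3% and 15.3% unthinned). The neighbouring gene PLRG1, a splicing factor 53699 bases from FGG, stood at 28.5 and 25.6 CPM, 1.12-fold (0.979 to 1.27). On the other side LRAT, which esterifies retinol, had 10 UMIs in members and 2 in FGG-zero cells.

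**Figure D1:**
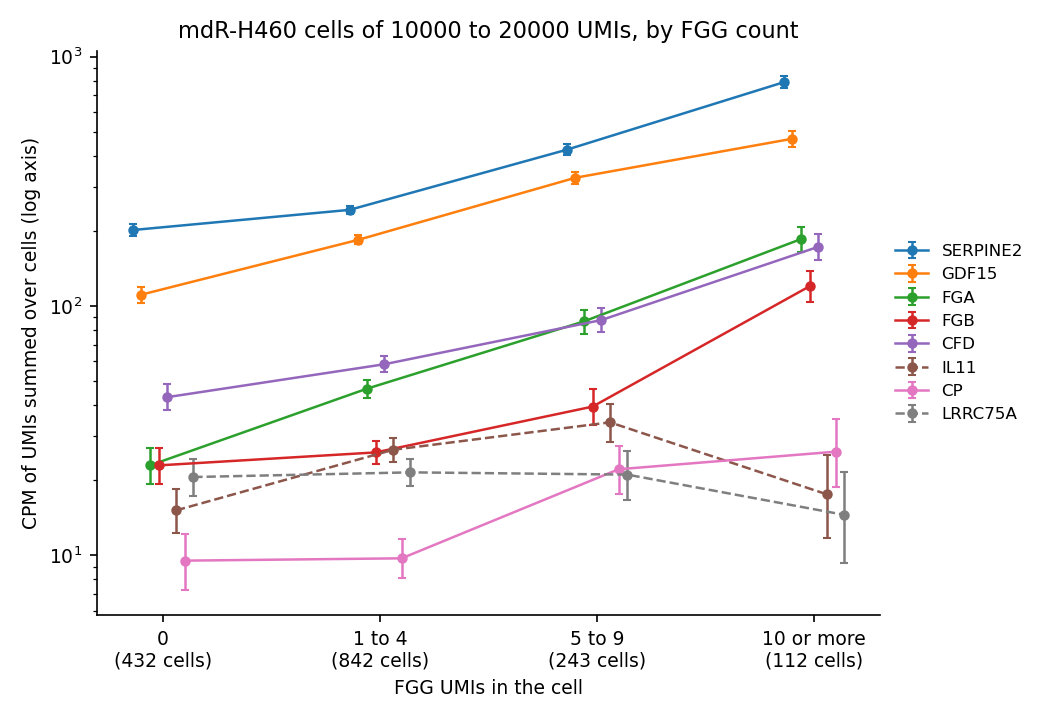
CPM (log axis) of 8 genes, from UMIs summed over mdR-H460 cells of 10000 to 20000 UMIs, by the FGG count of the cell. Points are sums over 432, 842, 243 and 112 cells and bars are exact Poisson intervals. FGA went from 22.9 to 185 CPM and SERPINE2 from 201 to 788 CPM across the bins, while IL11 and LRRC75A (dashed) showed no steady course.

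FGA, GDF15, CFD and SERPINE2 were higher in each successive bin of FGG count among cells of 10000 to 20000 UMIs. FGA stood at 22.9, 46.6, 86.7 and 185 CPM in cells with 0, 1 to 4, 5 to 9 and 10 or more FGG UMIs. FGB was nearly level over the first bins, at 22.9 and 25.9 CPM, and then stood at 39.5 and 120 CPM. CP, which was at 9.52 and 9.72 CPM in the lower bins, was at 22.1 and 26.0 CPM in the upper ones. GDF15 stood at 111, 184, 326 and 468 CPM.

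Of the 5 marker genes given for the class, IL11 barely separated it. IL11, a cytokine of the IL-6 family, was at 22.8 CPM in members and 19.2 CPM in FGG-zero cells, 1.19-fold (1.02 to 1.38), and 10 member cells held 33.0% of the members' IL11 UMIs. Its fold was 1.92 (1.48 to 2.50) in the window of 10000 to 20000 UMIs and 0.83 among cells of 20000 UMIs or more. GDF15, a stress-induced cytokine of the TGF-beta superfamily, was at 239 and 131 CPM, 1.83-fold (1.73 to 1.93), 2.11-fold against depth-matched cells and 3.33-fold (3.06 to 3.63) in the window. At least 5 GDF15 UMIs were found in 279 of 1085 members (25.7%) and in 112 of 1350 FGG-zero cells (8.30%).

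Apart from these genes the classes were close. Of 5900 genes that reached 10 CPM in either class, 5788 (98.1%) lay within 1.5-fold. FGG included, 6 genes were at least 2-fold higher in members, which is 0.102% of those compared, and 3 were at least 2-fold lower, which is 0.0508%. At 1.5-fold these were 77 (1.31%) and 35 (0.593%). Against depth-matched cells, 25 genes (0.424%) were at least 2-fold higher and 0 (0%) lower, and 164 (2.78%) and 38 (0.644%) at 1.5-fold. With members taken instead as the 569 cells of 5000 UMIs or more in which FGG made up at least 0.05% of UMIs, 6119 genes were compared. Of these 214 passed 2-fold upward and 104 downward.

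**Figure D2:**
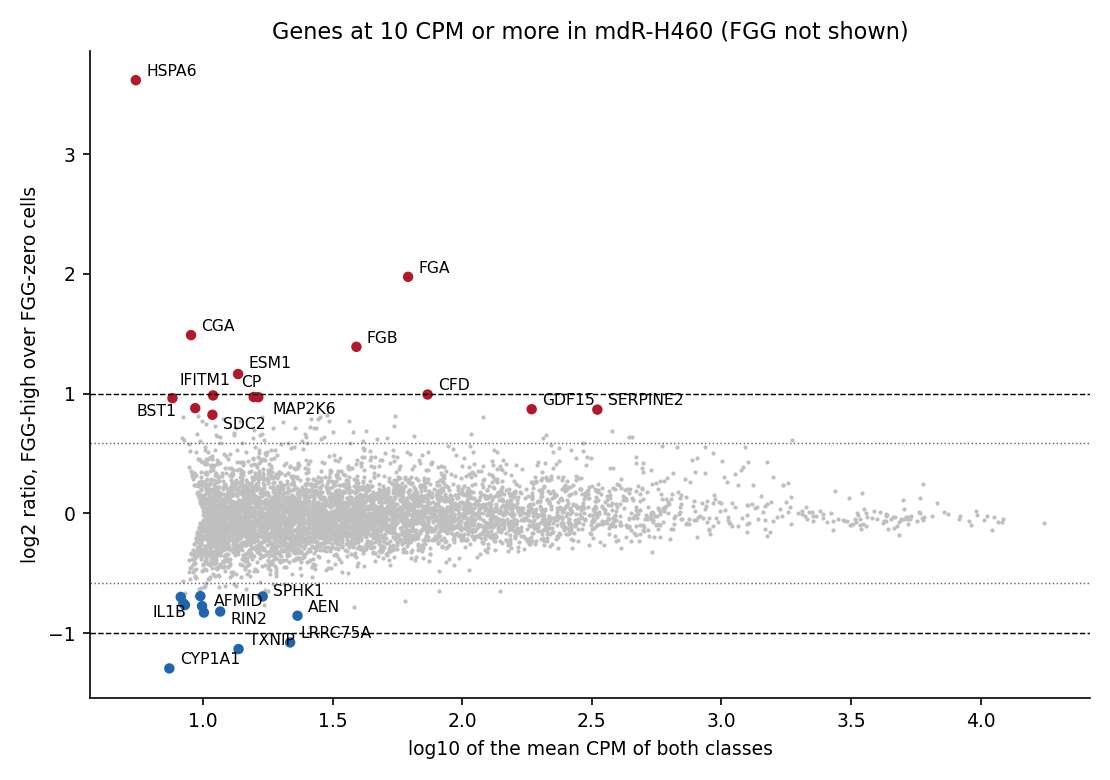
Each point is 1 of the 5899 genes other than FGG that reached 10 CPM in either class of mdR-H460, with the log10 of its mean CPM on the horizontal axis and the log2 ratio of FGG-high over FGG-zero cells on the vertical axis. Red and blue points are the highest and lowest genes by the naming rule, most of them labelled, dashed lines mark 2-fold and dotted lines 1.5-fold. FGA, FGB and a few others stand out from a cloud that lies mostly between the dotted lines.

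The genes of 4 further secreted proteins among the highest are described together, a grouping made after their values were seen. CFD, the complement protease factor D, stood at 97.8 CPM in members and 49.1 CPM in FGG-zero cells, 1.99-fold (1.83 to 2.17). CP, the copper-carrying plasma protein ceruloplasmin, stood at 20.7 and 10.6 CPM, 1.96-fold (1.63 to 2.37). SERPINE2, an inhibitor of thrombin and plasminogen activators, stood at 429 and 235 CPM, 1.82-fold (1.75 to 1.90). ESM1, a secreted proteoglycan also called endocan, stood at 18.8 and 8.41 CPM, 2.24-fold (1.83 to 2.76). These 4 genes were higher in each of the 4 depth ranges and at least 2.20-fold higher against depth-matched cells. CFD was only 1.19-fold higher among cells of 20000 UMIs or more.

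The remaining high genes included MAP2K6, a kinase that activates p38, at 21.6 and 11.02 CPM, 1.96-fold (1.64 to 2.35). IFITM1, an interferon-induced membrane protein, was 1.98-fold (1.59 to 2.48) higher, BST1, an ectoenzyme of NAD metabolism, 1.84-fold (1.45 to 2.34), and SDC2, the membrane proteoglycan syndecan 2, 1.77-fold (1.42 to 2.21). HSPA6 and CGA rest on few cells. HSPA6, a heat-inducible HSP70, was 12.3-fold (7.01 to 23.5) higher, but 14 members held all of its 192 UMIs and 1 cell held 124. Without the cluster that HSPA6 leads, its fold was 0.80. CGA, the alpha subunit of glycoprotein hormones, was 2.81-fold (2.16 to 3.69) higher, with 81.6% of the members' UMIs in 10 cells.

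Genes lower in the members were few and mostly low. CYP1A1, a target of the aryl hydrocarbon receptor, was at 4.29 CPM in members and 10.5 CPM in FGG-zero cells, 2.45-fold (1.87 to 3.24) lower. TXNIP, a thioredoxin inhibitor, was at 8.58 and 18.8 CPM, 2.19-fold (1.80 to 2.67) lower, and LRRC75A was at 13.9 and 29.4 CPM, 2.11-fold (1.81 to 2.46) lower. TXNIP is among the leading genes of the cluster led by HSPA6, and LRRC75A leads a cluster of its own. Without the cluster led by HSPA6, CYP1A1 was 1.08-fold and TXNIP 0.92-fold of its FGG-zero level, and LRRC75A was 0.93-fold in the window of 10000 to 20000 UMIs. The other named low genes, AEN, AFMID, RIN2, IL1B, CAMTA2, GIGYF1, LEMD2, SPHK1 and RP11-111M22.3, were 1.61-fold to 1.81-fold lower.

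**Figure D3:**
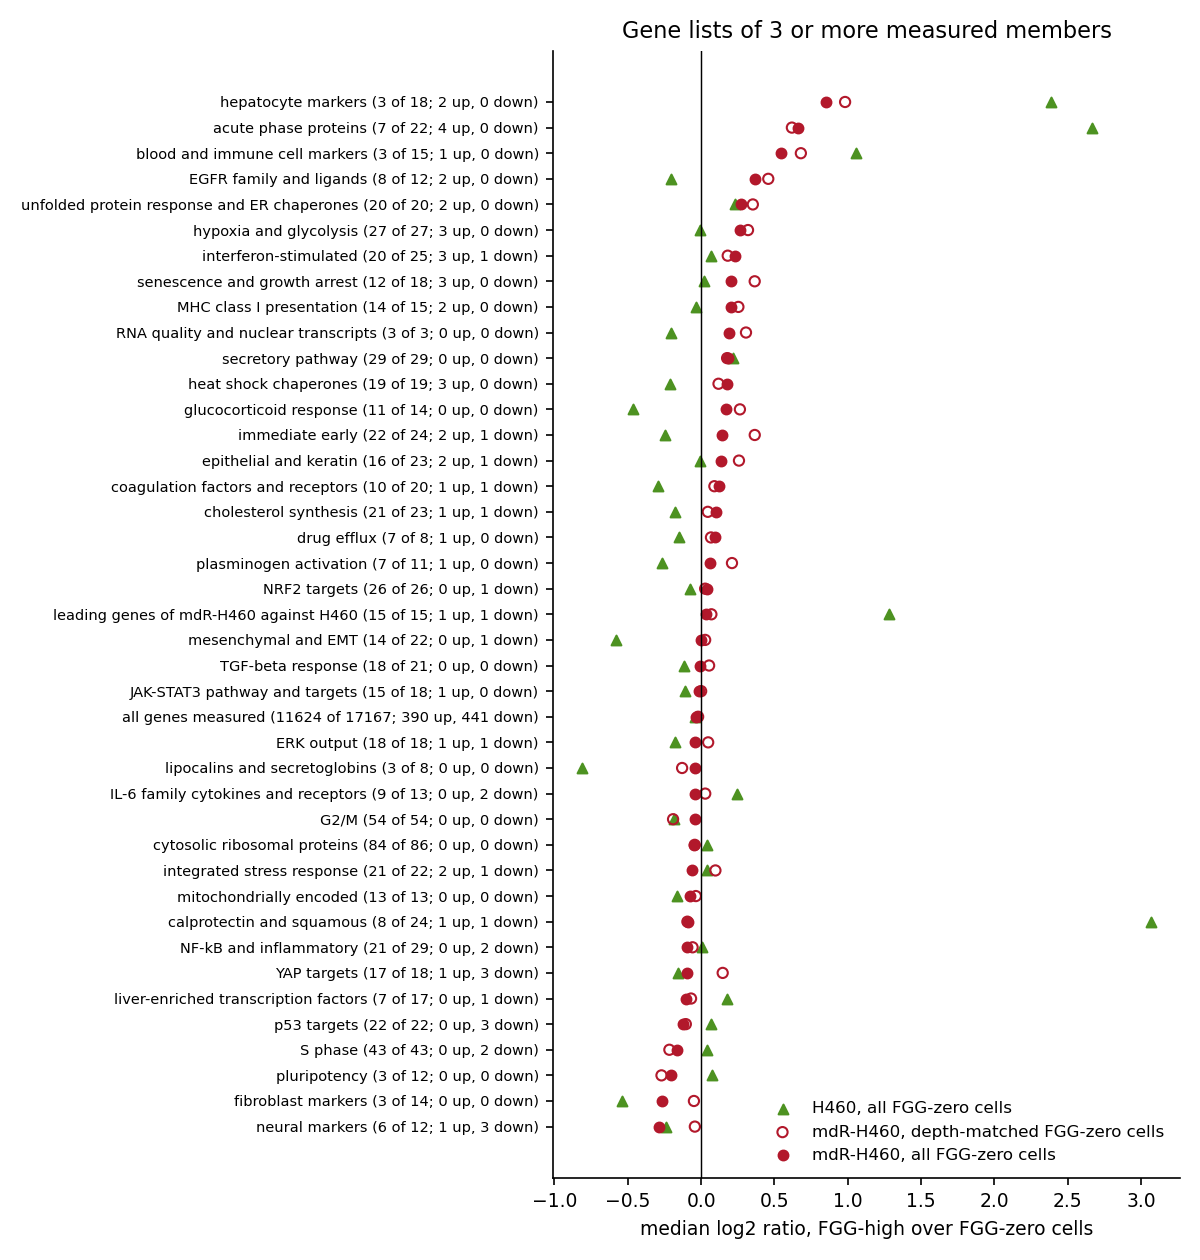
Median log2 ratio of FGG-high over FGG-zero cells for each gene list with 3 or more measured members (1 CPM or more in a class), and for all genes measured. Labels give measured members of all members, and how many were at least 1.5-fold higher (up) or lower (down) in mdR-H460. Filled circles are mdR-H460 against all FGG-zero cells, open circles against depth-matched cells and triangles H460. Acute phase and hepatocyte lists stand to the right in both libraries, the calprotectin list in H460. Genes enter a list through either class, and counts under 3 UMIs are raised to the floor. In the few FGG-high cells of H460 this moves lists of low genes to the right, so the likeness of the 2 libraries is no support.

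Gene lists were read at 1.5-fold over members measured at 1 CPM or more, where 390 of 11624 genes other than FGG were higher and 441 lower, 3.36% and 3.79% of genes with FGG counted, with a median log2 ratio of -0.04. Against depth-matched cells these shares were 6.3% and 3.77%. Of 7 measured acute phase proteins, 4 were higher and 0 lower, with a median log2 ratio of 0.66. Beside ceruloplasmin above, C1R and C1S, the proteases of the first complement component, were 1.85-fold (1.26 to 2.78) and 1.58-fold (1.37 to 1.82) higher. The fourth, FGL1, a fibrinogen-like liver protein, stood at 1.16 and 0.70 CPM, reached 1 CPM only in members, and was 0.668-fold in the GDF15-led and NRN1-led clusters alone. LCN2, the iron-siderophore binder lipocalin 2, was 1.34-fold (1.03 to 1.74) lower, and complement C3 was at 12.9 and 13.5 CPM. Another 7 of the 22 listed members, among them CRP, HP, SERPINA3 and A2M, had no UMI in either class.

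Few hepatocyte genes were seen. Of 18 hepatocyte markers 3 were measured and 11 had no UMI, ALB, TTR and APOB among them. VTN, the adhesion protein vitronectin, stood at 8.31 and 2.49 CPM, 3.34-fold (2.34 to 4.88), and RBP4, the plasma carrier of retinol, at 6.67 and 3.70 CPM, 1.80-fold (1.31 to 2.51). APOA2 was at 1.16 and 1.34 CPM. Of 17 liver-enriched transcription factors 7 were measured, 0 were higher and 1 was lower, with a median log2 ratio of -0.11. HNF4A, FOXA2 and FOXA3 had no UMI in either class. CEBPB, a C/EBP factor of the acute phase response, stood at 126 and 134 CPM, CEBPD at 28.7 and 36.4 CPM and FOXA1 at 14.5 and 15.6 CPM.

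The IL-6 family and JAK-STAT3 lists did not shift with FGG as groups, while IL6 itself leaned higher. Of 9 measured IL-6 family cytokines and receptors, 0 were higher and 2 lower, with a median log2 ratio of -0.04. Against depth-matched cells 1 was higher and 1 lower, with a median of 0.03. IL6 stood at 69.8 and 56.5 CPM, 1.23-fold (1.13 to 1.35), and was 1.60-fold higher against depth-matched cells. In cells of 10000 to 20000 UMIs it stood at 43.1, 47.1, 56.8 and 98.1 CPM with 0, 1 to 4, 5 to 9 and 10 or more FGG UMIs. Among cells called in the G1 phase IL6 was 0.90-fold. The shared signalling receptor IL6ST stood at 34.2 and 35.8 CPM, LIF at 15.4 and 15.7 CPM and OSMR at 17.8 and 16.6 CPM. IL6R, the ligand-binding receptor of IL-6, was at 2.65 and 4.01 CPM. Of 15 measured genes of the JAK-STAT3 list 1 was higher and 0 lower, with a median log2 ratio of -0.01. The higher one, BCL6, was 2.40-fold higher and reached 1 CPM only in members. Of 11 glucocorticoid response genes 0 were higher and 0 lower, with a median of 0.17. Among cells called in the G1 phase the medians of these 2 lists were -0.28 and -0.23, against -0.11 for all genes measured.

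Genes of protein folding and secretion leaned higher by small amounts. Of 20 unfolded protein response and ER chaperone genes, 2 were at least 1.5-fold higher and 17 lay above 1, with a median log2 ratio of 0.27. HSP90B1, the ER form of HSP90, stood at 465 and 288 CPM, 1.62-fold (1.56 to 1.67), and PDIA3, a disulfide isomerase, at 258 and 164 CPM, 1.58-fold (1.501 to 1.65). HSPA5, the ER chaperone BiP, was 1.43-fold (1.36 to 1.495) higher. XBP1, which drives one branch of the response, was at 45.8 and 47.3 CPM, and ERN1, its upstream sensor, at 4.45 and 5.10 CPM. Of 29 secretory pathway genes 0 passed 1.5-fold and 25 lay above 1, where 5091 of all 11624 genes did, led by the oligosaccharyltransferase subunits DDOST and RPN2 at 1.43-fold each.

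Coagulation genes besides fibrinogen were mixed. TFPI, the inhibitor of the tissue factor pathway, stood at 67.9 and 40.8 CPM, 1.66-fold (1.51 to 1.83), and its relative TFPI2 at 1030.1 and 701 CPM, 1.47-fold (1.435 to 1.504). Of 10 measured coagulation genes these gave 1 higher, beside 1 lower, and 8 of 20, thrombin's gene F2 and F7 among them, had no UMI.

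Other lists are given by their counts and medians. Of 27 hypoxia and glycolysis genes 3 were higher and 0 lower, with a median log2 ratio of 0.26, and BNIP3L, a mitophagy receptor, stood at 35.3 and 20.4 CPM, 1.72-fold (1.51 to 1.98). HLA-B was 1.73-fold (1.501 to 1.99) and HLA-C 1.57-fold (1.44 to 1.71) higher among 14 MHC class I presentation genes, of which 2 were higher and 0 lower. AREG, a ligand of EGFR, was 1.71-fold (1.52 to 1.92) higher, and 2 of 8 EGFR family genes passed, with a median log2 ratio of 0.37 that was 0.46 against depth-matched cells. The other that passed, BTC, was at 0.70 CPM in FGG-zero cells and reached 1 CPM only in members. Of 22 immediate early genes, which respond fast to growth and stress signals, 2 were higher and 1 lower with a median of 0.14, and 6 were higher with a median of 0.37 against depth-matched cells. FOS, a subunit of AP-1, stood at 21.4 and 12.3 CPM. Of 12 senescence and growth arrest genes, GDF15 among them, 3 were higher and 0 lower with a median of 0.21, and 5 were higher with a median of 0.37 against depth-matched cells. Among cells called in the G1 phase, the median was -0.42 for immediate early, -0.13 for senescence and 0.09 for EGFR family genes. It was 0.40 for hypoxia and glycolysis, 0.19 for MHC class I and -0.11 for all genes measured. In the GDF15-led and NRN1-led clusters alone it was 0.004 for the EGFR family, 0.13 for immediate early and 0.16 for senescence genes. Of 21 NF-kB and inflammatory genes 0 were higher and 2 lower, with CXCL8 at 935 and 679 CPM and CXCL3 at 63.2 and 99.2 CPM. Against depth-matched cells 3 of these genes were higher and 2 lower, with a median log2 ratio of -0.06. Of 22 p53 targets 0 were higher and 3 lower, AEN among them, and of 21 integrated stress response genes 2 were higher and 1 lower. Against depth-matched cells 0 p53 targets were higher and 1 lower, and 4 integrated stress response genes were higher and 0 lower. DDIT3, the stress factor CHOP, was at 74.0 and 98.2 CPM, and 37 members (3.41%) and 38 FGG-zero cells (2.81%) held at least 5 of its UMIs.

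Markers of fibroblasts, the feeder cells included, and of endothelial, lung epithelial and blood cells were low in both classes, while some neural markers were not. Of 12 neural markers 6 were measured, 1 higher and 3 lower. Their summed level was 56.4 CPM in members and 50.0 CPM in FGG-zero cells. Of 14 fibroblast markers 7 had no UMI in either class, COL1A2, DCN and PDGFRA among them, and the summed level of the measured ones was 9.47 CPM in members and 11.3 CPM in FGG-zero cells. No endothelial or lung epithelial marker reached 1 CPM, and 9 of 15 blood and immune markers, PTPRC included, had no UMI. The 3 measured blood and immune markers lay above 1, CD14 at 1.59-fold (0.925 to 2.79), HBA1 at 1.46-fold (0.875 to 2.49) and HBA2 at 1.05-fold (0.722 to 1.55), with a median log2 ratio of 0.55 and a summed level of 8.05 CPM in members and 6.31 CPM in FGG-zero cells. Their part in the results was not tested. Cells high in calprotectin genes overlapped with the members. Of 204 mdR-H460 cells with at least 5 S100A8 UMIs, 65 (31.9%, 25.5% to 38.7%) were members, against 23.8% of all cells of 1000 UMIs or more. Both sets were cut on absolute counts. S100A8 stood at 89.0 and 96.2 CPM and S100A9 at 534.0 and 533 CPM, and 65 members (5.99%) and 55 FGG-zero cells (4.07%) held at least 5 S100A8 UMIs. At least 20 S100A9 UMIs were in 138 members (12.7%, 10.8% to 14.8%) and 101 FGG-zero cells (7.48%, 6.13% to 9.02%), an absolute count in classes of unequal depth. With members taken at 10 or more FGG UMIs, S100A8 was 1.40-fold and S100A9 1.37-fold higher. Those 65 members and the 830 with no S100A8 UMI had FGA at 102 and 100.1 CPM, while GDF15 was at 123 CPM in the former and 263 CPM in the latter.

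Fewer members were called in the S or G2/M phase. Among cells thinned to 5000 UMIs, 45.5% (42.4% to 48.6%) of members and 26.3% (23.6% to 29.2%) of FGG-zero cells were called G1 from phase marker genes, 22.4% and 32.5% S and 32.1% and 41.2% G2/M. Of 43 S phase genes 0 were higher and 2 lower, with a median log2 ratio of -0.17, and of 54 G2/M genes 0 were higher and 0 lower, with a median of -0.04 that was -0.19 against depth-matched cells. UHRF1, a factor of maintenance methylation expressed in S phase, was 1.52-fold (1.247 to 1.86) lower. Among G1 cells alone (470 members and 258 FGG-zero cells) FGA was 5.23-fold, FGB 2.93-fold and GDF15 1.49-fold higher. Of 6048 genes at 10 CPM in those cells, 25 passed 2-fold upward and 146 downward.

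**Figure D4:**
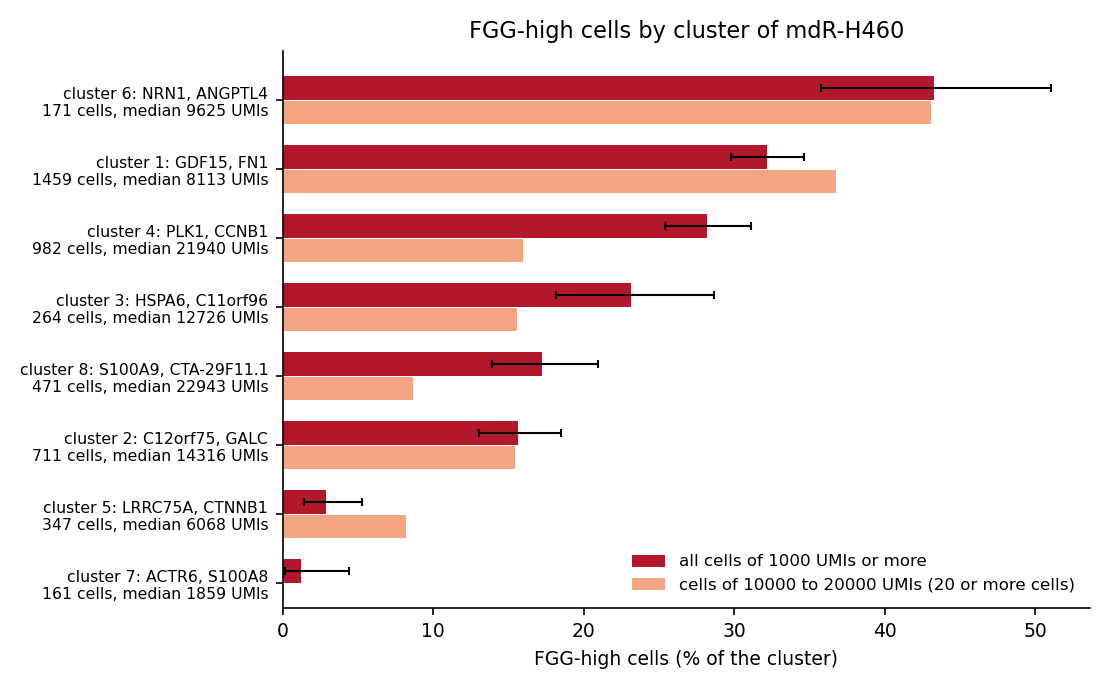
Share of FGG-high cells in each of 8 clusters of mdR-H460, labelled by their 2 leading genes, for all cells of 1000 UMIs or more (dark bars with exact binomial intervals) and for cells of 10000 to 20000 UMIs (light bars). The clusters led by NRN1 and GDF15 hold 43.3% and 32.1% and keep the highest shares at like depth, while the cluster led by PLK1 drops from 28.2% to 15.9%.

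Members were found in all 8 clusters of mdR-H460 that were made without the fibrinogen genes, but unevenly. The cluster led by GDF15, FN1, CFD and SERPINE2 (1459 cells) held 43.2% of the members, which made up 32.1% (29.8% to 34.6%) of it. The cluster led by NRN1, ANGPTL4 and MIR210HG (171 cells), where ANGPTL4 and MIR210HG are known to respond to hypoxia, had the highest share, 43.3% (35.7% to 51.1%), and FGG at 587 CPM. In both, under 1% of thinned cells were called G2/M (0.753% and 0.704%). The cluster led by PLK1 and CCNB1 had 28.2% members at a median of 21940 UMIs, but 15.9% among its cells of 10000 to 20000 UMIs, where the GDF15-led and NRN1-led clusters had 36.8% and 43.1%. The cluster led by LRRC75A had 2.88% members, or 8.22% at that depth. The cluster led by ACTR6, at a median of 1859 UMIs and 0.325% mitochondrial UMIs, had 1.24%.

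FGA was higher in members within each cluster of more than 60 members, and GDF15 in all of these but the PLK1-led one. FGA was 3.15-fold to 3.88-fold higher in members than in FGG-zero cells of the clusters led by GDF15, C12orf75, PLK1, NRN1 and S100A9. It was 10.9-fold (6.07 to 21.1) higher in the cluster led by HSPA6 and 1.74-fold (0.580 to 4.36) in the LRRC75A-led cluster, which had 10 members. Across the 6 clusters with more than 60 members, FGB was 1.39-fold (0.991 to 1.96) in the C12orf75-led cluster, an interval that includes 1. In the others it was 1.85-fold (1.42 to 2.44) to 7.66-fold (4.30 to 14.7) higher. GDF15 was 1.55-fold (1.43 to 1.67) higher within the cluster it leads, 1.26-fold (1.03 to 1.56) in the NRN1-led cluster, 2.02-fold (1.71 to 2.40) in the C12orf75-led cluster, 2.06-fold (1.53 to 2.79) in the S100A9-led cluster and 1.35-fold (1.09 to 1.67) in the HSPA6-led cluster. It was 0.863-fold (0.761 to 0.979) in the PLK1-led cluster. Over cells of the GDF15-led and NRN1-led clusters alone, 543 members and 364 FGG-zero cells, FGA was 3.60-fold, CFD 1.59-fold and CP 1.57-fold higher.

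The same rule was read in H460, a library the choice of cells did not use, where its 97 FGG-high cells stood against 3865 FGG-zero cells. FGA was at 38.1 CPM in FGG-high cells, from 68 UMIs, and 0.149 CPM in FGG-zero cells, from 9 UMIs, 256-fold (127 to 584). FGB was at 102 and 2.81 CPM, 36.3-fold (29.3 to 45.0). CP stood at 21.8 and 3.12 CPM, a ratio with an interval of 4.83 to 9.92. GDF15 was 3.62-fold (3.26 to 4.01), TFPI2 2.42-fold (2.33 to 2.50) and VTN 3.32-fold (2.41 to 4.47) higher. CFD was at 62.2 and 52.2 CPM, 1.19-fold (0.977 to 1.44). IL11 had no UMI in the 97 cells. With 1 library each, differences between H460 and mdR-H460 were not tested.

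FGG-high cells of H460 differed from their FGG-zero cells in more genes. Of 6466 genes at 10 CPM, 49 (0.758%) passed 2-fold upward and 102 (1.58%) downward, and 193 (2.98%) and 484 (7.49%) passed 1.5-fold. Against depth-matched cells of H460 the latter shares were 3.22% and 7.25%. Sums over 97 cells carry more counting error than sums over 1085. Of the 76 genes at least 1.5-fold higher in mdR-H460 and the 192 in H460, FGG left out, 24 were in both, 31.6% of the former and 12.5% of the latter. They include FGA, FGB, CP, GDF15, ESM1, SERPINE2, TFPI, MAP2K6, PDIA3 and SLPI.

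**Figure D5:**
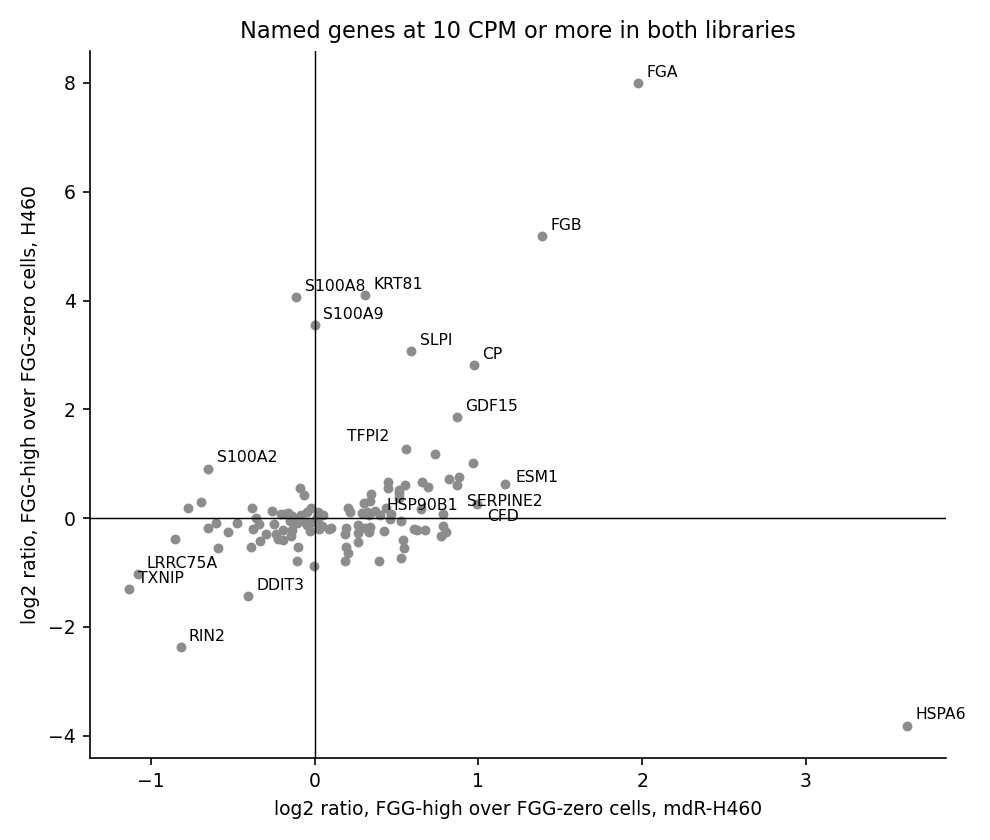
Log2 ratio of FGG-high over FGG-zero cells in mdR-H460 (horizontal) and in H460 (vertical) for the 120 named genes at 10 CPM or more in both libraries. FGA and FGB are far to the upper right, S100A8, S100A9 and KRT81 are over 10-fold higher in H460 and near 0 in mdR-H460, and HSPA6, drawn at the floor of 3 UMIs in H460, lies at the lower right.

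Calprotectin genes stood farther apart between the classes in H460 than in mdR-H460, a difference that was not tested. At least 5 S100A8 UMIs were in 33 of 97 FGG-high cells of H460 (34.02%) and in 82 of 3865 FGG-zero cells (2.12%). S100A8 was 16.8-fold (15.9 to 17.7), S100A9 11.7-fold (11.3 to 12.1) and KRT81, a hair keratin, 17.2-fold (14.3 to 20.7) higher. SLPI, a secreted inhibitor of neutrophil elastase, was 8.396-fold (8.01 to 8.80) higher in H460 and 1.51-fold (1.45 to 1.57) higher in mdR-H460. Of 9 measured genes of the calprotectin and squamous list 8 were higher in H460, where 11.2% of all genes at 1 CPM were, against 1 of 8 in mdR-H460. The floor for low counts lifts folds of low genes in the FGG-high cells of H460. These list counts therefore cannot be compared between the libraries, and how many H460 genes passed through the floor was not tested. Of all genes at 1 CPM in H460, 12.3% were at least 1.5-fold lower, and against depth-matched cells 11.7% were higher and 11.9% lower. With cells of 5 or more S100A8 UMIs left out of H460, some folds fell and others rose. FGA was 125-fold (52.7 to 328) higher, from 20 and 8 UMIs, FGB 20.4-fold (15.1 to 27.3) and S100A9 5.80-fold (5.28 to 6.37), each less than with these cells kept. GDF15 was 4.25-fold (3.78 to 4.77) and KRT81 26.5-fold (21.9 to 31.9) higher, each more than with them kept.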

How the data were processed

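Per the labels, the libraries were made with a Chromium 3′ kit from 3 cultured lines. The authors deposited, for each library, a table of whole-number UMI counts, genes by cells, which the series design text describes as left after filtering on quality. Per the submitters' processing notes, Cell Ranger 3.0.2, Seurat 3.0 and the build GRCh38 were used. The 3 libraries held 66192074 (H460), 66624830 (mdR-H460) and 60468481 (ldR-H460) UMIs in 4531, 5151 and 4956 cells.

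UMIs were summed over the cells of a class and divided by the class total to give CPM. Counts under 3 UMIs in a class were set to a floor of 3 UMIs, in folds only. That floor was 0.159 CPM in members and 0.191 CPM in FGG-zero cells of mdR-H460. In H460 the FGG-high class held 1785424 UMIs and the FGG-zero class 60569210, so the floor was higher in CPM in the former. IL11, with 0 UMIs in FGG-high cells of H460, was thus scored 2.48-fold higher, and H460 folds of low genes lean upward. Sums have exact Poisson intervals and ratios and shares exact binomial (Clopper-Pearson) intervals at 95%, which cover counting error alone. No p-value was computed, since each group is a single library. Genes were counted at 10 CPM or more in the higher class, and list members at 1 CPM or more. Named genes are the 15 highest and 12 lowest at 10 CPM and 1.5-fold in the same direction against depth-matched cells, up to 3 measured members of each list in each direction, and all measured fibrinogen, IL-6 family and liver factor genes. Genes shown as shared with H460, and the neighbours of FGG, were named outside that rule. Members, lists and tests were chosen with earlier results of these data known. Phases and Leiden clusters (2000 variable genes without FGG, FGA and FGB, 30 components, 15 neighbours, resolution 0.5) came from scanpy 1.11.5, and class scalings from edgeR and DESeq2 as alternatives. The summing and the intervals were tested on simulated data. Values of a few named genes were left out and are not reported here.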

Additional observations from a re-analysis of the deposited data

Results flagged for a closer look

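HSPA6 and S100A2 lay on opposite sides in the 2 libraries, which was not tested because each is 1 library. HSPA6 was 12.3-fold higher in FGG-high cells of mdR-H460, where 1 cell held 124 of their 192 UMIs. In those of H460 it had 0 UMIs against 1435 in FGG-zero cells. That is 14.1-fold lower at the floor of 3 UMIs, which is not a bound. At least 1 HSPA6 UMI was in 0 of 97 FGG-high cells of H460 (0% to 3.73%) and 91 of 3865 FGG-zero cells (2.35%, 1.90% to 2.88%). S100A2, a squamous S100 protein, was at 0.638 of its FGG-zero level in mdR-H460, 109 against 171 CPM, and 1.88-fold higher in H460, 82.9 against 44.2 CPM. Within clusters of mdR-H460, S100A2 was 1.91-fold (1.496 to 2.44) higher in members of the C12orf75-led cluster and 0.516-fold (0.463 to 0.574) in the HSPA6-led cluster.

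FGG UMIs were also found in cells that no comparison used. FGG stood at 214 CPM (57 UMIs) in the 585 mdR-H460 cells under 1000 UMIs, near the library's 233 CPM, and none of these cells held 5 FGG UMIs. The part of RNA free in the suspension in these counts was not tested. In ldR-H460, 14 of 4738 cells of 1000 UMIs or more held 5 or more FGG UMIs, too few for a class, and these held 14.4% of that library's FGG UMIs.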

How the results depend on the processing

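Over 17 alternatives FGA was 3.30-fold to 6.50-fold and FGB 2.14-fold to 4.56-fold higher in members, and GDF15, CP, CFD and SERPINE2 also lay above 1 in 17 of 17. The counts of genes moved more. Genes compared numbered 2144 at 50 CPM, 11625 at 1 CPM and 5760 to 6119 in the other settings. The 6 genes at least 2-fold higher became 11 with edgeR TMM factors, 11 with DESeq2 size factors, 25 with cells weighted equally, 25 against depth-matched cells, 45 after thinning, 54 with FGG of at least 10, 214 with FGG of at least 0.05% of UMIs, 10 in cells of 5000 UMIs or more, 12 without the deepest 5% of cells, 25 in G1 cells, 19 in the GDF15-led and NRN1-led clusters alone, 3 at 50 CPM, 78 at 1 CPM and 77 at 1.5-fold. The 3 genes at least 2-fold lower became 13 with equal weights, 0 against depth-matched cells, 19 after thinning, 7 with FGG of at least 10, 104 with the 0.05% rule, 1 without cells of 5 or more DDIT3 UMIs, 146 in G1 cells, 9 in the GDF15-led and NRN1-led clusters, 0 at 50 CPM, 92 at 1 CPM and 35 at 1.5-fold. The members numbered 1822 with FGG of at least 3 and 384 with at least 10. Beyond the changes in cells, genes or thresholds that these settings make, the cause was not tested.

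Among 45 named genes that reached 10 CPM and 1.5-fold, 9 changed side. Without the HSPA6-led cluster the folds were 0.80 for HSPA6, 1.08 for CYP1A1 and 1.09 for CAMTA2. In the GDF15-led and NRN1-led clusters alone they were 0.38 for HSPA6, 1.57 for CYP1A1, 1.10 for CAMTA2, 1.06 for GIGYF1, 1.09 for BBC3 and 0.85 for HSPA1A. CYP1A1 was at 1.07 without DDIT3 cells. With the 0.05% rule SESN2 was at 1.33 and AJUBA at 1.04, and among cells of 10000 to 20000 UMIs IL1B was at 1.19 and SESN2 at 1.21. The limit of 10 CPM for such reversals was set after a first pass over the data. Of 36 named genes below it, 13 changed side under some alternative. The window of 10000 to 20000 UMIs, the 1.5-fold threshold, the settings that leave out or keep clusters and all alternatives in H460 were chosen after seeing the data. No paired analysis was possible because each group is 1 library.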
